A study of Mus musculus with 9 samples.

Results

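The 3 GFP-TTP-AA libraries were compared with the 3 GFP libraries of a total RNA-Seq experiment on mouse macrophages, which makes 6 of its 9 libraries, and the 3 GFP-TTP libraries were used only as a reference. All genes with a deposited comparison entered, 13205 of the 25494 genes that have library values, and no gene was chosen by its change. The cells were macrophages derived from the bone marrow of TTP-deficient mice and immortalized with human c-myc and the hRas variant G12V. Into 1 such culture an inducible vector was transduced that encoded GFP alone (GFP), GFP fused to wild-type tristetraprolin (GFP-TTP), or GFP fused to the mutant with the substitutions S52A and S178A (GFP-TTP-AA). The transduced cells were sorted, so that each group is 1 pool of transduced cells rather than a series of clones. All groups were kept for 6 h with doxycycline and 1 h with lipopolysaccharide (LPS), both at 1 µg/ml, and libraries without doxycycline or without LPS were not analysed here. The comparison therefore addressed which RNAs differ after 1 h of LPS between a pool with a TTP that MK2 cannot phosphorylate and a pool without TTP. Because every construct was carried by 1 pool only, the design does not separate the construct from other differences between the pools. The part of such differences in the calls below was not tested. Nothing in the labels states that the 3 libraries of a group came from separate cultures, so that the p-values measure the spread between these libraries.

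Tristetraprolin (TTP), encoded by Zfp36, is a zinc-finger protein that binds AU-rich elements in the 3′UTR of short-lived mRNAs and recruits the deadenylation machinery to them. In LPS-stimulated macrophages the p38 MAPK-activated kinase MK2 phosphorylates TTP at a pair of serines, which lets scaffold proteins bind it and holds back its mRNA-destabilizing activity. Alanines at both positions take away this switch. Known mRNAs under this control encode cytokines such as TNF and also proteins that end the inflammatory response, among them IER3, DUSP1 and TNFAIP3.

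The deposited values of single libraries are fitted means of the DESeq2 model of the study, with a term for the library date and a term for the group, so that the libraries of each group keep the same ratios to each other and the scatter around the fit is not in them. The error of every change is therefore the deposited standard error of the log2 fold change (written ± below), and the adjusted p is that of the DESeq2 Wald test with Benjamini-Hochberg adjustment. The fitted means summed to 33596016, 25504519 and 102613526 counts in the GFP-TTP-AA libraries and to 36295572, 29245475 and 38032238 in the GFP libraries. All 12 macrophage markers examined were measured, with 2 higher and 0 lower in GFP-TTP-AA (2 lower at an unadjusted p under 0.05). Their summed level was 604479 to 827754 in GFP and 687855 to 936888 in GFP-TTP-AA. Markers of T, B, mast, fibroblast and epithelial cells did not reach the comparison table. Of 3 measured endothelial markers 2 were higher, Vwf at 0.62 ± 0.13 and Kdr at 0.88 ± 0.23 on the log2 scale, and their list summed to 1138 to 1248 in GFP and 1736 to 1915 in GFP-TTP-AA. In bulk RNA, fewer cells that express a gene and less of its RNA in each cell cannot be told apart.

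Reads of Zfp36 can come from the transgene and from what the disrupted endogenous gene still transcribes (ENSMUSG00000044786, chr7:28376784-28380253 on GRCm38). Fitted counts were 1742, 1422 and 889 in the GFP libraries and 2824, 2295 and 1441 in the GFP-TTP-AA libraries. The log2 fold change was 0.69 ± 0.17 (adjusted p 0.000682), and it did not pass after division of the Wald scores by their spread (adjusted p 0.356). For the libraries labelled GFP-TTP against the same GFP libraries it was 0.04 ± 0.17 (adjusted p 0.930). Added Zfp36 RNA was thus not detectable in them by this gene-level count, and the value alone does not bear out their label. At the protein level the paper reports similar amounts of both fusion proteins in these cells by western blot, which RNA counts do not measure. The name GFP-TTP is used below as a label only. The difference between the GFP-TTP-AA and GFP-TTP libraries was 0.65 ± 0.17 (adjusted p 0.000902). Since the counting strand is not stated in the sources used here and exons of Zfp36 overlap a gene on the other strand, reads of that gene cannot be told apart from these.

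Of the 13205 genes, 2361 passed an adjusted p of 0.05, which is 17.9%. The calls were split nearly evenly, with 1203 genes higher in GFP-TTP-AA (9.11% of those tested) and 1158 lower (8.77%). Most changes were small, as 1327 of the 2361 (56.2%) were under 0.5 on the log2 scale in either direction and the median size was 0.46. Larger changes were mainly increases. A change of 1 or more on the log2 scale was found in 193 genes, 152 of them higher and 41 lower. Across all genes the median change was 0.001, and 5% of genes lay below -0.43 and 5% above 0.53. The Wald scores were more widely spread than a normal distribution gives for unchanged genes, with a central spread of 1.77, and division by it left 197 genes, of which 124 were higher and 73 lower.

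**Figure D1:**
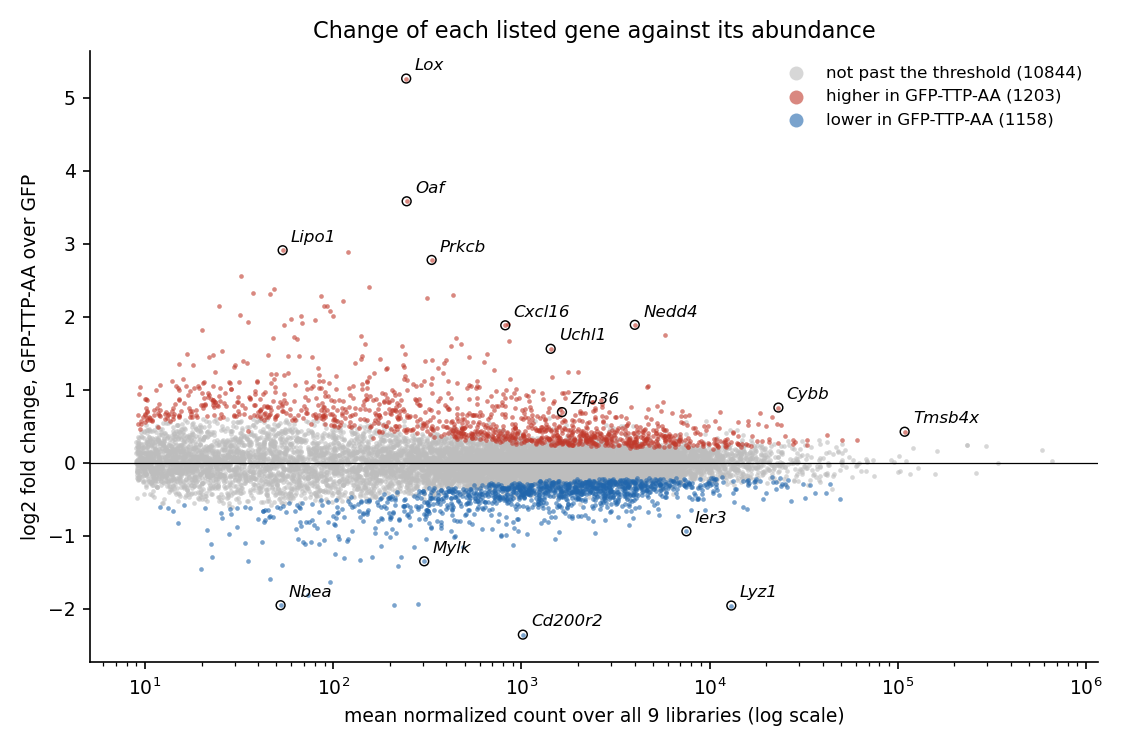
Log2 fold change of GFP-TTP-AA against GFP (vertical axis) of each of the 13205 genes over its mean normalized count (horizontal axis, log scale), with the called genes in colour. The 1203 higher genes reach 5.27 and extend to the lowest counts, whereas the 1158 lower genes stop at -2.36 and thin out at low counts.

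The largest increase was that of Lox, which encodes the lysyl oxidase that crosslinks collagen and elastin (ENSMUSG00000024529). Its fitted counts were 21.8, 7.98 and 6.13 in GFP and 841, 307 and 236 in GFP-TTP-AA. This was a 38.5-fold difference, or 5.27 ± 0.21 (adjusted p 1.92e-129) on the log2 scale, and in GFP-TTP the change was 0.18 ± 0.23 (adjusted p 0.722). GFP-TTP-AA and GFP-TTP differed by 5.08 ± 0.21 (adjusted p 6.95e-120). The fitted values of Lox made up 66.4% of its deposited mean count, so that the fold of the fitted values can understate a gene with such low control counts. The next increases were those of Oaf, at 3.58 ± 0.20 (adjusted p 6.87e-65), the lipase-family gene Lipo1, at 2.91 ± 0.23 (adjusted p 1.21e-32), and Crip1, a small LIM-domain protein, at 2.89 ± 0.23 (adjusted p 4.66e-32). Here the fitted values were 76.1, 67.5 and 54.8% of the mean count. Among the 193 large changes the fitted values fell under 90% of the mean count in 93, against 287 of all 13205 genes. Prkcb, a protein kinase C isoform, rose by 2.78 ± 0.18 (adjusted p 5.37e-53), Lancl3 by 2.40 ± 0.22 (adjusted p 4.22e-24), the tetraspan membrane protein Tm4sf1 by 2.31 ± 0.17 (adjusted p 1.87e-39), and Pparg, the nuclear receptor of lipid metabolism, by 2.28 ± 0.21 (adjusted p 2.71e-24). Exons of Lancl3 and Lox overlap a gene on the other strand.

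Among the decreases, Cd200r2, a member of the CD200 receptor family of the macrophage surface, ranked first (ENSMUSG00000090176, chr16:44867097-44915840). Fitted counts were 1330, 1510 and 1490 in GFP and 260.3, 294 and 291 in GFP-TTP-AA. The change was -2.36 ± 0.17 (adjusted p 1.67e-42). Lyz1, a lysozyme gene of the highest abundance class, had 18422, 26882 and 23095 in GFP and 4753, 6907 and 5956 in GFP-TTP-AA. The log2 fold change was -1.96 ± 0.14 (adjusted p 1.26e-43), and GFP-TTP changed by -1.23 ± 0.14 (adjusted p 2.72e-17). Lyz1 and Cd200r2 have close relatives in the genome between which short reads may be divided. The other large decreases were those of the kinase-anchoring protein gene Nbea, at -1.95 ± 0.23, Gm5611, at -1.94 ± 0.20, the lysophosphatidylserine receptor gene Gpr34, at -1.93 ± 0.22, the globin-related Adgb, at -1.81 ± 0.23, and the GTPase-activating protein gene Arhgap4, at -1.64 ± 0.21. Adjusted p was at most 1.39e-12 for these 5. Exons of Arhgap4 and Nbea overlap a gene on the other strand.

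Some of these genes also differed from the same 3 GFP libraries in the libraries labelled GFP-TTP, in which the change of Zfp36 did not pass the test. Prkcb was at 2.06 ± 0.18 (adjusted p 1.23e-28) and Tm4sf1 at 1.37 ± 0.17 (adjusted p 1.85e-13) in GFP-TTP, and Nbea at -2.21 ± 0.23 (adjusted p 3.87e-19), Adgb at -2.28 ± 0.23 (adjusted p 7.39e-20) and Arhgap4 at -2.94 ± 0.22 (adjusted p 3.26e-38). In the direct test between GFP-TTP-AA and GFP-TTP, Prkcb differed by 0.72 ± 0.17 (adjusted p 0.000165), Tm4sf1 by 0.94 ± 0.16 (adjusted p 2.92e-07) and Arhgap4 by 1.30 ± 0.22 (adjusted p 1.23e-07), whereas the difference was 0.26 ± 0.23 (adjusted p 0.444) for Nbea and 0.47 ± 0.23 (adjusted p 0.126) for Adgb. Pparg moved the other way, at -0.67 ± 0.22 (adjusted p 0.0370). Over the transcriptome, GFP-TTP against GFP had 1097 called genes of 11977 tested (9.16%), whereas GFP-TTP-AA against GFP-TTP had 3780 of 13205 (28.6%).

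Of the 3 feedback inhibitors Ier3 passed the test, though not after division of the Wald scores by their spread (adjusted p 0.0536). Ier3, an immediate early gene that restrains NF-κB and apoptosis (ENSMUSG00000003541, chr17:35821684-35822923), had fitted counts of 8732, 10745 and 7439 in GFP and 4562, 5590 and 3885 in GFP-TTP-AA. The change was -0.94 ± 0.16 (adjusted p 2.16e-07). For GFP-TTP it was -0.03 ± 0.16 (adjusted p 0.943), and GFP-TTP-AA and GFP-TTP differed by -0.91 ± 0.16 (adjusted p 2.92e-07). Dusp1, the phosphatase that inactivates p38, was at -0.57 ± 0.23 (adjusted p 0.0630), which did not pass the threshold, and exons of Dusp1 overlap a gene on the other strand. Tnfaip3, encoding the ubiquitin-editing enzyme A20, was at 0.04 ± 0.18 (adjusted p 0.920), and the cytokine Tnf at -0.16 ± 0.17 (adjusted p 0.586). These values are levels of total RNA after 1 h of LPS, and neither decay nor translation was measured in these libraries.

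**Figure D2:**
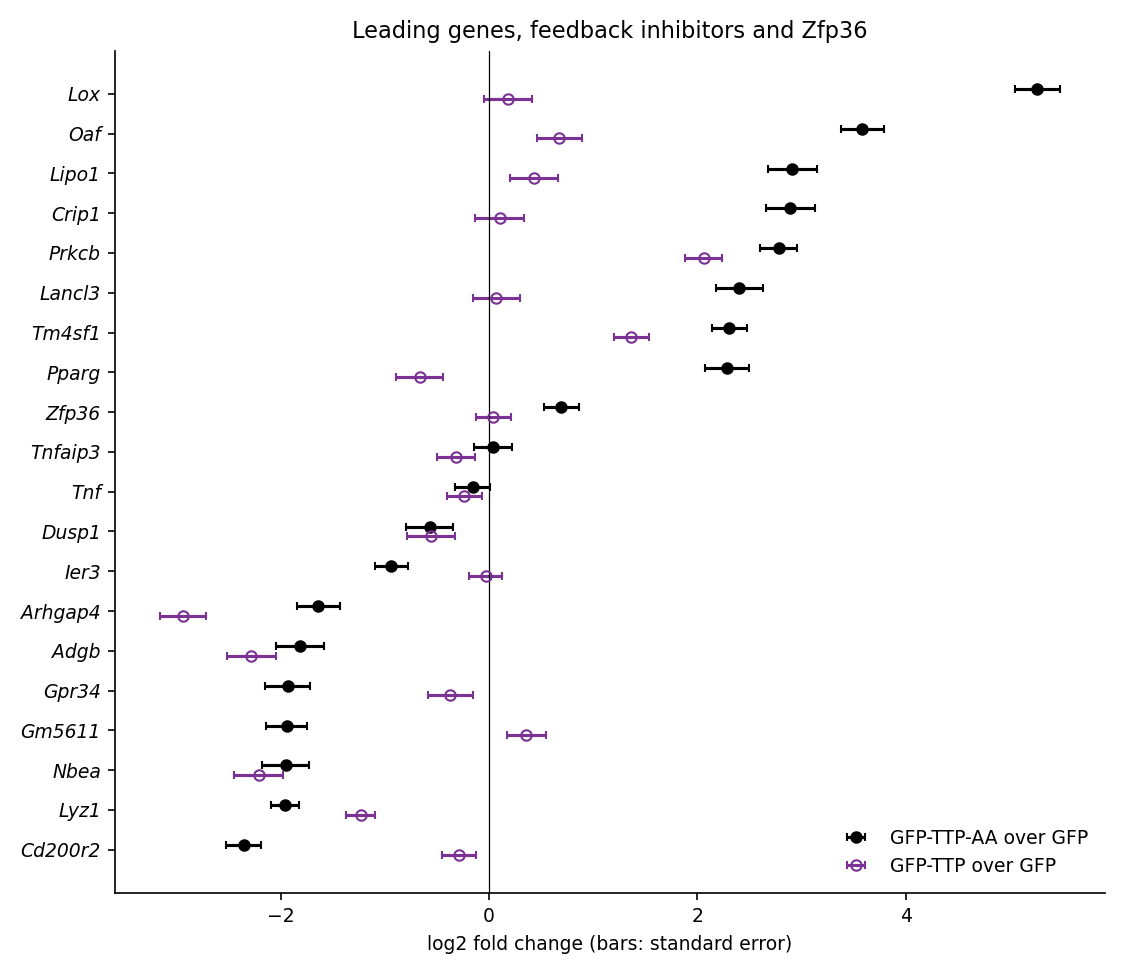
Log2 fold change against GFP (horizontal axis, bars are standard errors) of the 8 largest increases, the 7 largest decreases, Zfp36, the feedback inhibitors and Tnf, for GFP-TTP-AA (filled) and GFP-TTP (open), both against the same 3 GFP libraries. Lox lies at 5.27 for GFP-TTP-AA and 0.18 for GFP-TTP, while Prkcb, Nbea, Adgb and Arhgap4 lie far from 0 for both.

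The 3′UTRs of all these genes hold the 7-base core TATTTAT of the AU-rich element to which TTP binds. For some of them the window that holds the most matches is shown, or the first such window where several tied. They make the motif visible in an RNA that fell and in 2 that did not pass the test, together with 2 further cytokine mRNAs that fell. These 2 were drawn from lower genes that hold a match, so that their pairing of match and decrease follows from the choice. No windows were drawn for cytokine mRNAs that rose. The windows are read 5′ to 3′ on the transcript strand from GENCODE M21 transcripts (GRCm38), and capitals mark each match in the window.
Ier3 (chr17:35822485-35822513, plus strand): taattaaTATTTATgTATTTATgtatatc
Dusp1 (chr17:26506159-26506187, minus strand): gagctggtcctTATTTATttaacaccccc
Tnf (chr17:35199678-35199706, minus strand): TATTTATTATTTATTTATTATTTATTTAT
Osm (chr11:4240946-4240974, plus strand): tttaTATTTATaaggccTATTTATaatgt
Il23a (chr10:128296179-128296207, minus strand): gatggtTATTTATtcTATTTATaaggaat
Counting overlapping matches over the whole 3′UTR, Ier3 has 4, Dusp1 3, Tnfaip3 2, Tnf 8, Osm 3 and Il23a 5. Of these, Il23a, the specific subunit of interleukin-23, changed by -1.05 ± 0.23 (adjusted p 0.000154), and Osm, encoding oncostatin M, by -1.05 ± 0.16 (adjusted p 1.64e-08). Tnf, with the most copies of these 6, was not called.

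Across the 11416 measured protein-coding genes with an annotated 3′UTR, the share of genes lower in GFP-TTP-AA was larger the more TATTTAT matches the transcript strand held. It was 7.15% of 8283 genes without a match, 14.5% of 2081 with 1, 18.8% of 671 with 2 and 19.9% of 381 with 3 or more. The share of higher genes was 10.5, 7.06, 6.11 and 6.30% in the same order, and the median change was 0.02, -0.05, -0.09 and -0.12. A match was found in 45.9% of the lower genes, 19.6% of the higher genes and 26.2% of the genes not called, against 27.4% of all measured coding genes and 25.4% of the 20721 coding genes of the annotation. For GFP-TTP against the same GFP libraries the shares of lower genes were 4.91, 6.08, 6.79 and 7.20%. After centring of each chromosome on its own median, chosen after the data were seen, the shares of lower genes for the mutant were 6.34, 13.7, 17.9 and 19.2%, and with the trend on GC content and length removed they were 6.91, 12.5, 14.8 and 15.2%. After division of the Wald scores by their spread they were 0.459, 0.865, 1.34 and 1.31%, and the shares of higher genes were then 1.00, 1.06, 1.34 and 0.525%. The classes were compared without a test, because genes are not replicates of a condition.

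3′UTRs of lower genes were also longer, with a median of 1193 bases against 1017 for higher genes and 929 for genes not called, and their transcripts poorer in GC (48.3% against 50.8 and 50.4%). The part of length and GC content in the shares by match was not tested, and the shares within classes are given beside them. In 3′UTRs under 250 bases, 22 of the 76 genes with a match were lower (28.9%) and 1 was higher, compared with 6.69% lower without a match. In those of 4000 bases and over, the shares of lower genes were 14.0% with a match and 8.15% without. In transcripts under 40% GC they were 22.3 and 9.46%, and at 55% GC and over 11.8 and 5.99%. For genes with a mean count under 30 the shares of lower genes were 2.60% with a match and 1.29% without, while 15.6 and 12.3% of these were higher.

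**Figure D3:**
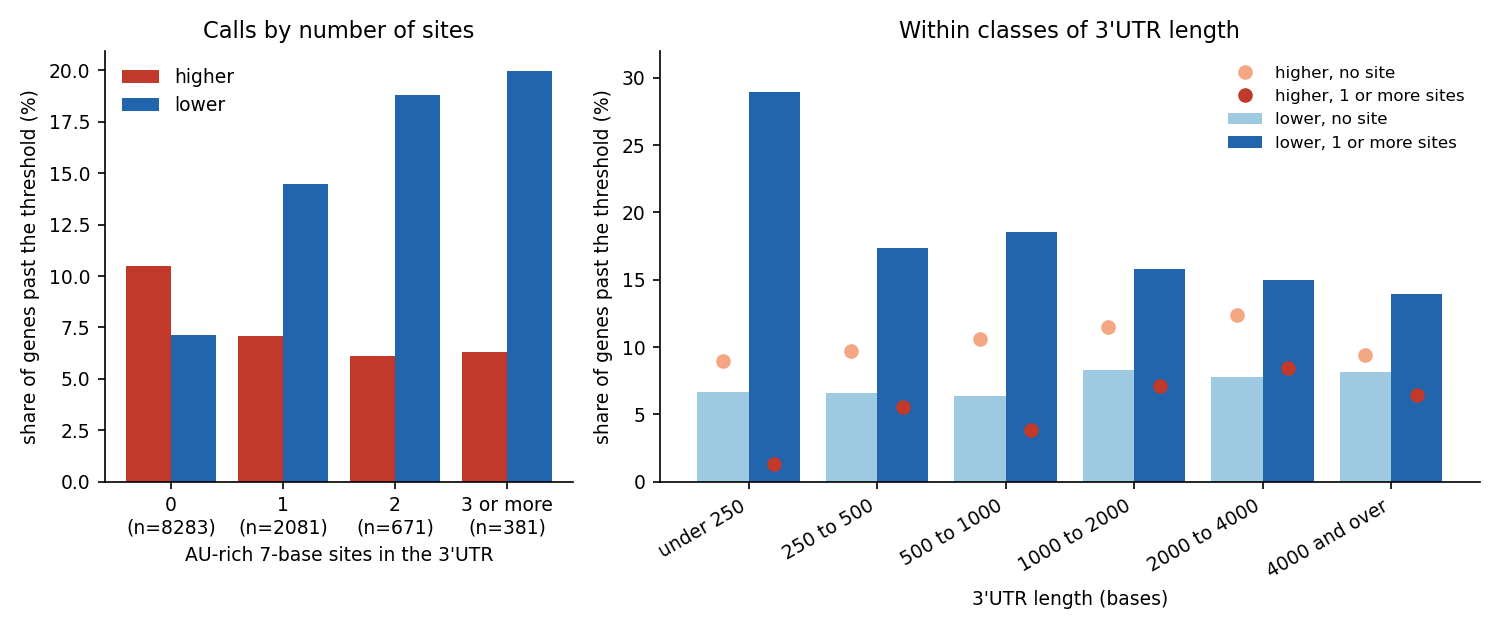
Share of protein-coding genes higher and lower in GFP-TTP-AA (percent of genes, vertical axes) by the number of TATTTAT matches in the 3′UTR (left) and by 3′UTR length for genes with and without a match (right; bars are lower genes, dots higher genes). The share of lower genes goes from 7.15% without a match to 19.9% with 3 or more, and it is larger with a match in all 6 length classes.

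Examples of genes with a match that were lower include transcription factors and signalling genes. Zfp217, a zinc-finger transcription factor with 2 matches, changed by -0.60 ± 0.09 (adjusted p 1.81e-09). Klf2, a transcription factor that restrains macrophage activation, had 1 and changed by -0.72 ± 0.18 (adjusted p 0.00111), and Zfp36l2, a paralogue of TTP, had 3 and changed by -0.62 ± 0.12 (adjusted p 1.89e-05). E2f1, a transcription factor of the cell cycle with 3 matches, changed by -0.29 ± 0.09 (adjusted p 0.0161). Hk2, the hexokinase of activated cells, had 2 and changed by -0.76 ± 0.12 (adjusted p 3.26e-08), and Cnot8, a deadenylase subunit of the CCR4-NOT complex, had 1 and changed by -0.47 ± 0.08 (adjusted p 1.38e-07). Exons of Zfp36l2 overlap a gene on the other strand.

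Increases and decreases were distributed differently over the abundance classes. Of the 1519 genes with a mean normalized count under 30, 126 were higher (8.29%) and 15 lower (0.987%). For 1263 genes between 30 and 100 counts the shares were 12.1 and 4.12%, and for 1388 between 100 and 300 they were 11.7 and 7.56%. At these low counts an increase was thus called more often than a decrease. From 300 to 1000 counts 9.00% of 2655 genes were higher and 10.5% lower, from 1000 to 3000 counts 7.84 and 11.7% of 3458, and from 3000 to 10000 counts 8.32 and 10.7% of 2308. The order was reversed in these 3 classes, and at 10000 counts and over 59 of 614 genes were higher (9.61%) and 53 lower (8.63%). A mean count includes the GFP-TTP-AA libraries themselves, and the lowest mean count in the comparison table was 8.98, so that a gene that is low in one group was listed only where its other libraries raised the mean. These shares are therefore a description of the listed genes and not of all genes of low level. The median change of all genes under 30 counts was 0.03, so that the imbalance lay in the upper tail, where 5% of the class exceeded 0.71 while 5% lay below -0.37. The third GFP-TTP-AA library had the largest summed fitted means of all libraries, and its part in this imbalance was not tested.

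Called changes shrank with abundance while the error did too. The median size of a called change was 0.78 under 30 counts, 0.79 from 30 to 100, 0.69 from 100 to 300 and 0.48 from 300 to 1000, and it was 0.38, 0.33 and 0.30 in the 3 highest classes. The median standard error was 0.23 in the lowest class and 0.09 in the highest. The smallest change that passed the test was 0.46 under 30 counts and 0.19 from 10000 counts on. The standard errors of 1239 genes, all with a mean count of at most 244, were smaller than counting error alone would give. With the Wald scores divided by their spread, the share of called genes was 0.592% under 30 counts, 2.38% from 30 to 100 and 0.651% at 10000 and over.

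**Figure D4:**
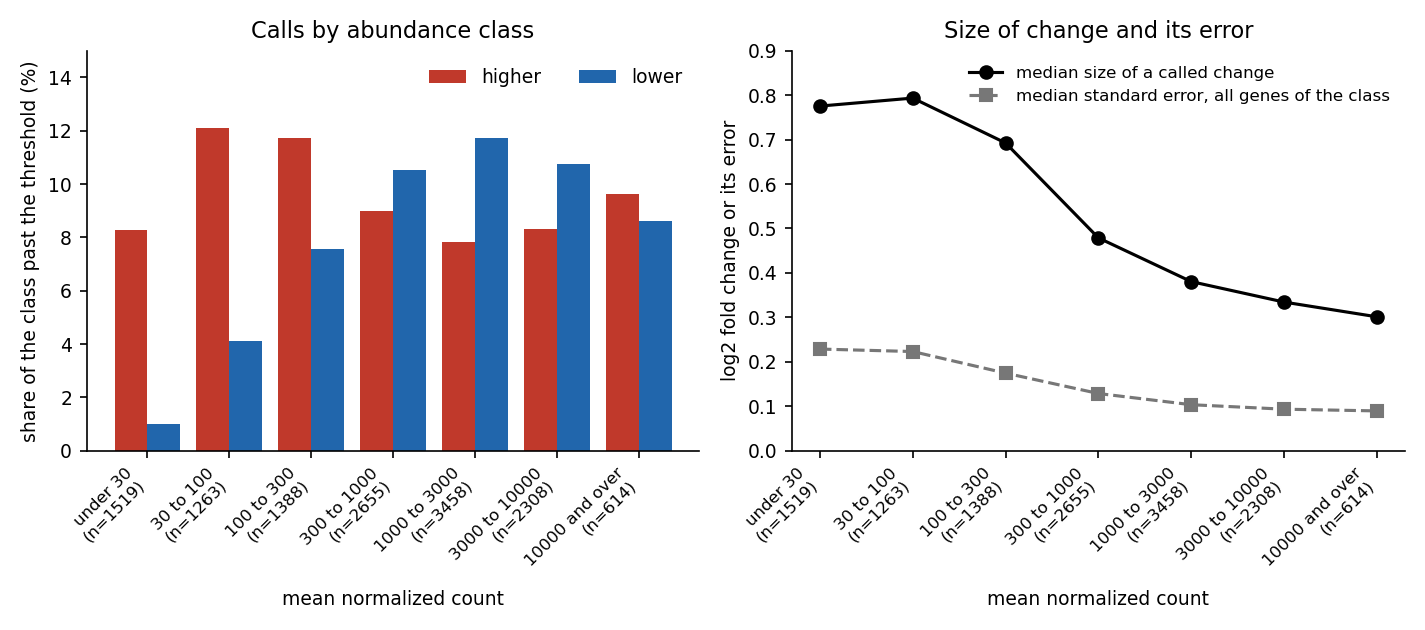
Share of genes higher and lower in GFP-TTP-AA (percent of the class) in 7 classes of mean normalized count, and the median size of called changes with the median standard error (log2 scale) in the same classes. Increases outnumber decreases 126 to 15 under 30 counts, and decreases outnumber increases 405 to 271 between 1000 and 3000 counts.

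The genes that led each class show what was found at each level. Under 30 counts, the membrane protein gene Tmem37 rose by 2.15 ± 0.23 and Greb1, known as an oestrogen-responsive gene, changed by -1.45 ± 0.23. Between 300 and 1000 counts the largest decrease was that of Mylk, the myosin light chain kinase, at -1.35 ± 0.14. Uchl1, a ubiquitin hydrolase best known from neurons, rose by 1.56 ± 0.17 in the class from 1000 to 3000 counts. Nedd4, a ubiquitin ligase, rose by 1.89 ± 0.15 in the class from 3000 to 10000, where Ier3 had the largest decrease. The mean fitted level of Nedd4 was 622 in GFP and 2308 in GFP-TTP-AA. Both lie below that class, because the mean count that sets it also includes the GFP-TTP libraries. Among genes of 10000 counts and over, Cybb, the catalytic subunit of the phagocyte NADPH oxidase, had the largest increase, at 0.76 ± 0.18 (adjusted p 0.000318), and Lyz1 the largest decrease. Exons of Greb1, Mylk and Uchl1 overlap a gene on the other strand.

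Functional lists were described by their counts and median change, beside the 9.11% higher, 8.77% lower and median of 0.001 of all genes. Of the TNF receptors and their adaptors, 8 of 22 rose and 0 fell (median 0.32, 0 lower at an unadjusted p under 0.05). Among these, Tnfrsf21, a death receptor, rose by 0.65 ± 0.16 (adjusted p 0.00104), Tnfrsf8, encoding CD30, by 0.83 ± 0.21 (adjusted p 0.00116), and Traf3, an adaptor that restrains the alternative NF-κB pathway, by 0.33 ± 0.09 (adjusted p 0.00415). Of NF-κB subunits and inhibitors, 5 of 21 rose and 0 fell (median 0.24, 1 lower at an unadjusted p under 0.05). The members that moved were mainly regulators, such as Ikbke, an IKK-related kinase, at 0.55 ± 0.15, the IκB-like Bcl3 at 0.72 ± 0.20, and the A20-binding inhibitor Tnip1 at 0.56 ± 0.16. Of Toll-like receptors and their adaptors, 3 of 27 rose and 0 fell (median 0.13, 0 lower at an unadjusted p under 0.05), with Irak3, an inhibitor of the pathway, at 0.75 ± 0.23 and Ly96, the MD-2 subunit of the LPS receptor, at 0.36 ± 0.13. With the Wald scores divided by their spread no member of the first 2 lists passed, and with centring by chromosome Traf3 had an adjusted p of 0.197. Exons of Bcl3, Ikbke and Irak3 overlap a gene on the other strand.

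The called chemokine ligands were all higher in GFP-TTP-AA, as 7 of 17 rose and 0 fell (median 0.25, 0 lower at an unadjusted p under 0.05). The transmembrane chemokine Cxcl16 rose by 1.88 ± 0.19 (adjusted p 2.03e-21), Cxcl14 by 1.70 ± 0.23 (adjusted p 5.51e-11) and the monocyte attractant Ccl7 by 1.05 ± 0.15 (adjusted p 1.04e-09). Interleukins and early cytokines moved in both directions, as 3 of 21 rose and 2 fell (median 0.08). Besides the lower Osm and Il23a, the increases were those of Ebi3, a subunit of heterodimeric interleukins, at 0.86 ± 0.19 (adjusted p 0.000142), Tnfsf15, at 0.65 ± 0.21 (adjusted p 0.0194), and Csf3, encoding the granulocyte colony-stimulating factor, at 0.61 ± 0.17 (adjusted p 0.00452). Exons of Cxcl16 and Ebi3 overlap a gene on the other strand. After division by the spread 4 of the 7 chemokines kept their call.

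Among immediate early genes, 4 of 29 rose and 4 fell (median -0.08). The increases included Fosl1, an AP-1 subunit, at 0.99 ± 0.19, the transcription factor Klf4 at 0.69 ± 0.14, and Myc at 0.49 ± 0.15, while Jun, another AP-1 subunit, was at -0.45 ± 0.13 and Ier3 and Klf2 were lower as given above. Reads of Myc may come in part from the immortalizing human c-myc, which was not separated from the mouse gene here. Dual-specificity phosphatases, which dephosphorylate MAP kinases, were divided too, as 2 of 21 rose and 2 fell (median -0.01). The 2 that fell were Dusp6, a phosphatase of ERK, at -0.79 ± 0.23 (adjusted p 0.00733), and Dusp22, at -0.41 ± 0.13 (adjusted p 0.0115), and the 2 that rose were Dusp9, at 0.88 ± 0.15 (adjusted p 9.08e-08), and Dusp13, at 0.61 ± 0.23 (adjusted p 0.0424). Of MAP kinases and MK2, 5 of 29 rose and 4 fell (median -0.02). Mapkapk2, encoding MK2 itself, was at 0.36 ± 0.12, the related Mapkapk3 at 0.37 ± 0.11 and the MAP kinase-interacting kinase gene Mknk2 at 0.48 ± 0.08, while the JNK activator Map3k1 was at -0.63 ± 0.13 and the p38 activator Map2k6 at -0.48 ± 0.13. Exons of Dusp13, Fosl1 and Jun overlap a gene on the other strand.

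Of interferon-stimulated genes, 7 of 37 rose and 0 fell (median 0.16, 0 lower at an unadjusted p under 0.05). These include Oasl1, a member of the oligoadenylate synthetase-like family, at 1.71 ± 0.19 (adjusted p 3.63e-17), Ifih1, the cytosolic RNA sensor MDA5, at 1.36 ± 0.16 (adjusted p 3.37e-15), and Lgals3bp, a secreted galectin-binding protein, at 0.78 ± 0.12 (adjusted p 1.50e-08). In GFP-TTP against the same GFP libraries 23 of 36 tested members were lower (63.9%, against 5.08% of all genes), with a median of -0.65. In the direct DESeq2 test 25 of 37 members were higher in GFP-TTP-AA than in GFP-TTP. In that test 28.6% of all genes were called in either direction. Both counts rest on the same GFP-TTP libraries and are not separate observations. Guanylate-binding proteins and IRG GTPases, which act against intracellular microbes, were mixed, as 3 of 10 rose and 1 fell (median 0.24), with Gbp2 at 1.09 ± 0.22, Gbp3 at 0.89 ± 0.21 and Gbp7 at 0.76 ± 0.20 against Ifi47 at -0.52 ± 0.14. Members of this family resemble each other in sequence, and reads shared between them may have been divided. Of MHC class I genes and the immunoproteasome, 1 of 21 rose and 2 fell (median 0.16), with H2-D1 at 0.30 ± 0.09, the nonclassical H2-T23 at -0.49 ± 0.13 and the peptide transporter subunit Tap2 at -0.35 ± 0.11. Exons of Gbp2, Ifi47, Oasl1 and Tap2 overlap a gene on the other strand.

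Genes of cell death were called in both directions. Among caspases, inflammasome components and inhibitors of apoptosis, 5 of 27 rose and 0 fell (median 0.11, 1 lower at an unadjusted p under 0.05). The necroptosis kinase gene Ripk3 rose by 0.79 ± 0.17 (adjusted p 5.59e-05), Casp4, the caspase (also called caspase-11) that responds to intracellular LPS, by 0.72 ± 0.19 (adjusted p 0.00199), and Pycard, the inflammasome adaptor ASC, by 0.37 ± 0.09 (adjusted p 0.000348). Of the BCL2 family, 5 of 20 rose and 2 fell (median 0.02). The pro-apoptotic Bbc3 (PUMA) was at 0.97 ± 0.11 (adjusted p 1.69e-16) and Bak1 at 0.47 ± 0.11 (adjusted p 0.000275), while Pmaip1 (NOXA), also pro-apoptotic, was at -0.68 ± 0.15 (adjusted p 0.000227). Of its anti-apoptotic members Bcl2a1a was at 1.11 ± 0.21 (adjusted p 8.46e-06), with near-identical copies in the genome, and Bcl2l2 at -0.70 ± 0.13 (adjusted p 3.71e-06). Members on both sides of the family thus moved either way. Of p53 targets, 6 of 27 rose and 5 fell (median 0.03), including the stress sensors Sesn2, at 0.68 ± 0.11, and Sesn1, at -0.73 ± 0.12, and the cell cycle inhibitor Cdkn1a (p21), at -0.47 ± 0.11. Exons of Bak1, Cdkn1a and Pycard overlap a gene on the other strand.

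Of endoplasmic reticulum chaperones and unfolded protein response genes, 0 of 25 rose and 7 fell (median -0.14, 1 higher at an unadjusted p under 0.05). The chaperone BiP, encoded by Hspa5, changed by -0.42 ± 0.09 (adjusted p 3.81e-05), Xbp1, the transcription factor of this response, by -0.43 ± 0.10 (adjusted p 0.000506), and the co-chaperone Dnajc3 by -0.39 ± 0.09 (adjusted p 0.000161). Of cytosolic ribosomal protein genes, 1 of 84 rose and 10 fell (median -0.08), which is a smaller called share than the 17.9% of all genes, for instance Rps27a at -0.31 ± 0.08, Rps21 at -0.30 ± 0.09 and Rpl37 at -0.29 ± 0.07. The 11 called ribosomal protein genes became 5 with centring by chromosome and 17 with the GC and length trend removed. A list with many processed pseudogenes in the genome such as this depends on how reads with several placements were counted. Of cytosolic aminoacyl-tRNA synthetases, 0 of 22 rose and 2 fell (median -0.09, 1 higher at an unadjusted p under 0.05). Their share of lower genes, 9.09%, was close to the 8.77% of all genes, and their called share was smaller than the 17.9%. Heat shock proteins and chaperonins were divided, as 2 of 26 rose and 4 fell (median -0.04). The inducible Hspa1a, at 1.10 ± 0.17 (adjusted p 1.51e-08), and Hspa1b, at 0.83 ± 0.18 (adjusted p 8.38e-05), nearly identical to each other, were higher, while Hsp90ab1, the constitutive HSP90, was at -0.41 ± 0.08 (adjusted p 3.50e-06). Of proteasome subunits, 5 of 46 rose and 0 fell (median 0.03, 0 lower at an unadjusted p under 0.05), with Psma6 at 0.34 ± 0.11. Their share of higher genes, 10.9%, was close to the 9.11% of all genes, and their called share was also smaller than the 17.9%. Centring by chromosome left 1 of these 5 calls, and Psma6 then had an adjusted p of 0.258. No chaperone of the endoplasmic reticulum, ribosomal protein or proteasome subunit passed after division by the spread. Exons of Hspa1a and Rps27a overlap a gene on the other strand.

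Mitosis genes had more decreases than increases, as 1 of 40 rose and 8 fell (median -0.17). Those with the smallest adjusted p were the kinetochore protein gene Cenpf, at -0.50 ± 0.09 (adjusted p 2.00e-06), Anln, encoding the cytokinesis protein anillin, at -0.45 ± 0.11 (adjusted p 0.000491), and the mitotic kinase gene Aurka, at -0.42 ± 0.10 (adjusted p 0.000290), whereas Incenp, of the chromosomal passenger complex, was at 0.30 ± 0.11 (adjusted p 0.0269). DNA replication genes did not share this direction, as 6 of 50 rose and 3 fell (median 0.04), with the ribonucleotide reductase subunit Rrm2 at 0.33 ± 0.09 and the polymerase subunit Pola2 at 0.44 ± 0.09 among those that rose and the replication protein A subunit Rpa3 at -0.64 ± 0.11 among those that fell. With centring by chromosome the 9 called replication genes became 5 and the 9 called mitosis genes 7. Rrm2 and Incenp then had an adjusted p of 0.178 and 0.199. Of replication-dependent histones, 3 of 56 rose (5.36%, under the 9.11% of all genes) and 0 fell (median 0.13, 0 lower at an unadjusted p under 0.05). Their mRNAs lack a poly(A) tail and were counted here because libraries were made from rRNA-depleted total RNA.

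In the list of deadenylation, decapping and decay factors, 2 of 58 rose and 7 fell (median 0.04), which is a smaller called share than that of all genes. The decreases were led by Tob1, an adaptor of the CCR4-NOT deadenylase, at -0.78 ± 0.12 (adjusted p 1.24e-08), Cnot8, given above, and Ddx6, an RNA helicase of decapping, at -0.47 ± 0.10 (adjusted p 5.38e-05), whereas the exosome subunit Exosc1 was at 0.33 ± 0.10 (adjusted p 0.0131, and 0.126 with centring by chromosome). Among AU-rich and stem-loop binding proteins, 4 of 23 rose and 4 fell (median 0.07), with Igf2bp2 at 0.74 ± 0.12 and the regnase-family Zc3h12c at 0.83 ± 0.18 higher besides Zfp36, and Fxr1 at -0.32 ± 0.08 and Fxr2 at -0.45 ± 0.09 lower besides Zfp36l2. Exons of Fxr1 and Zc3h12c overlap a gene on the other strand.

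Lysosomal and phagocyte genes contained some of the larger increases. Of lysosomal hydrolases and membrane proteins, 9 of 37 rose and 2 fell (median 0.03), led by the cathepsins Ctsh, at 1.96 ± 0.22 (adjusted p 4.49e-16), and Ctsl, at 0.54 ± 0.13 (adjusted p 0.000533), while the calcium channel gene Mcoln1 was at -0.38 ± 0.11 (adjusted p 0.00726). Of myeloid inhibitory and paired receptors, 5 of 21 rose and 1 fell (median -0.05). The paired immunoglobulin-like receptors Pirb and Pira2, which are alike in sequence, were at 1.30 ± 0.17 (adjusted p 7.38e-12) and 0.93 ± 0.18 (adjusted p 1.10e-05), and Trem1, an activating receptor of myeloid cells, at 0.78 ± 0.17 (adjusted p 0.000173), in contrast to the decrease of Cd200r2. Of Fc receptors and C-type lectins, 5 of 21 rose and 1 fell (median 0.17). Of the complement and scavenger receptor genes 4 of 16 rose and 1 fell (median 0.07), among them C3, the central complement component, at 0.92 ± 0.23, and the lipid scavenger receptor Cd36 at 1.17 ± 0.23. Of the myeloid transcription factors and Csf1r, 8 of 29 rose and 2 fell (median 0.15). The inhibitors of helix-loop-helix factors Id3, at 0.96 ± 0.15, and Id1, at 0.80 ± 0.17, and the macrophage regulator Spi1 (PU.1), at 0.29 ± 0.11, were among the increases, and Irf8, at -0.32 ± 0.11, was among the decreases. Exons of Ctsl overlap a gene on the other strand.

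Of the collagens, matrix and crosslinking enzymes, the list that holds Lox, 4 of 29 rose and 3 fell (median 0.08). The decreases were those of Plod2, a lysyl hydroxylase of collagen, at -0.83 ± 0.15 (adjusted p 7.29e-07), and the collagen genes Col23a1, at -0.81 ± 0.19 (adjusted p 0.000332), and Col4a6, at -0.60 ± 0.20 (adjusted p 0.0218). Of metalloproteases and their inhibitors, 5 of 21 rose and 0 fell (median 0.28, 0 lower at an unadjusted p under 0.05), with the inhibitors Timp1 at 1.23 ± 0.23 (adjusted p 4.91e-06) and Timp2 at 0.39 ± 0.12 (adjusted p 0.0140) and Adam17, the protease that sheds TNF, at 0.57 ± 0.12 (adjusted p 4.53e-05). Of actin cytoskeleton genes, 7 of 36 rose and 1 fell (median 0.13), including Ezr, encoding the membrane linker ezrin, at 0.76 ± 0.11 and the actin-sequestering Tmsb4x at 0.43 ± 0.13, while the related Tmsb10 was at -0.37 ± 0.09. Among S100 proteins and annexins, 5 of 19 rose and 1 fell (median 0.24), with the annexins Anxa2 at 0.50 ± 0.11 and Anxa6 at -0.41 ± 0.08. The alarmin S100a8, at 0.76 ± 0.21, is also a neutrophil marker, and the markers of that cell type summed to 148 to 208 in GFP and 227 to 334 in GFP-TTP-AA, with Elane, Ltf and Mpo under 1 count in every library. A part of such cells in the increase was not tested. Of the integrins, 3 of 17 rose and 2 fell (median 0.11), with Itgb5 at 0.86 ± 0.11 and Itga7 at -0.76 ± 0.23. Exons of Adam17, Anxa2, Ezr, Itga7 and Plod2 overlap a gene on the other strand.

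**Figure D5:**
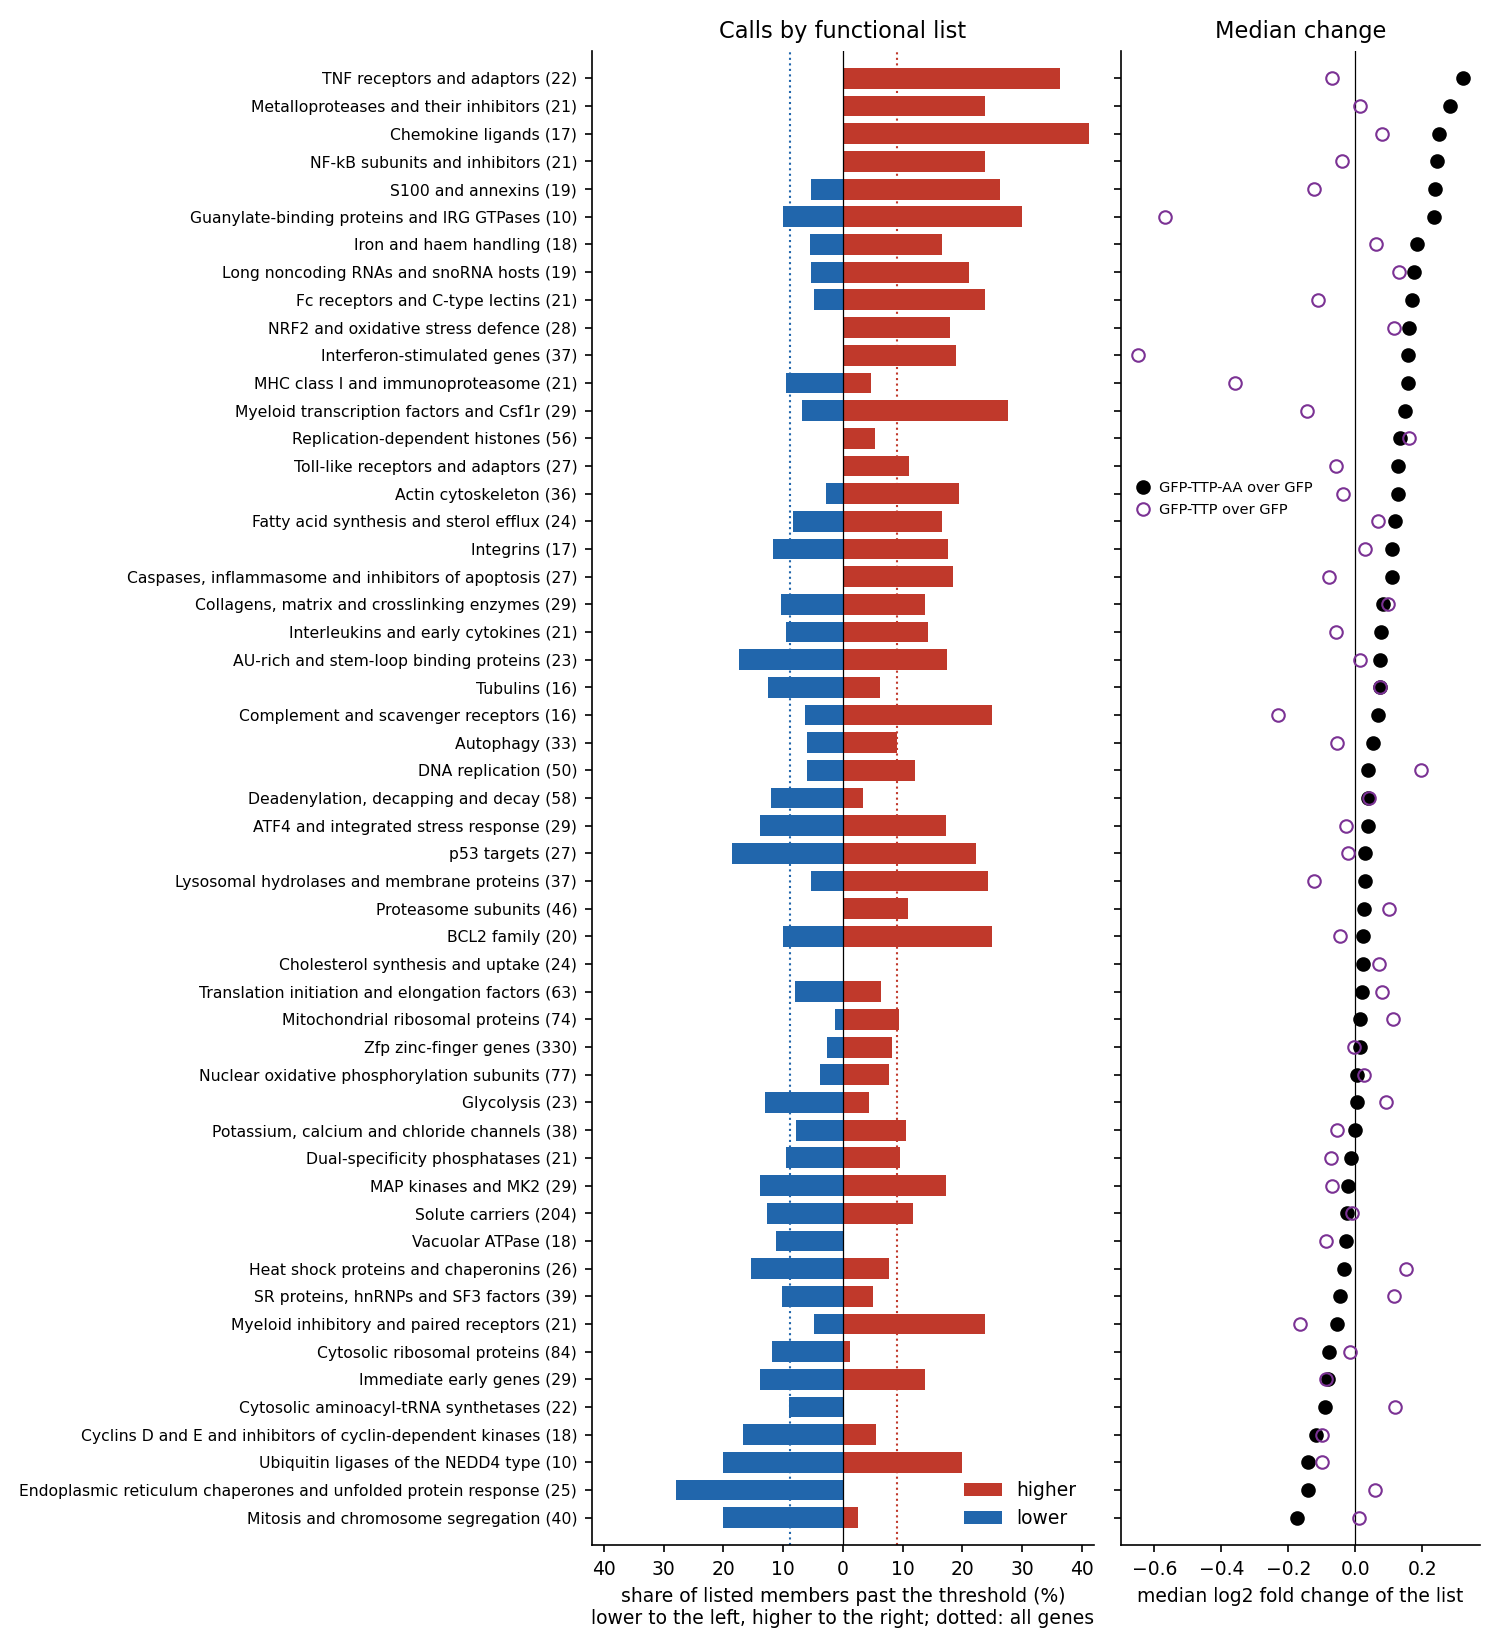
Left, share of the measured members of each functional list that are higher or lower in GFP-TTP-AA (percent, dotted lines for all genes, number of members in parentheses). Right, median log2 fold change of the list for GFP-TTP-AA (filled) and for GFP-TTP (open) against the same GFP libraries. TNF receptors and chemokines have increases as their only calls and endoplasmic reticulum chaperones decreases, and interferon-stimulated genes lie at 0.16 for GFP-TTP-AA and -0.65 for GFP-TTP.

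Metabolic lists showed few calls or calls in both directions. Of glycolysis genes, 1 of 23 rose and 3 fell (median 0.00), with Hk2 lower as given above, the muscle phosphofructokinase Pfkm at -0.67 ± 0.12 and the glucose transporter gene Slc2a3 at -0.39 ± 0.08. None of the 24 genes of cholesterol synthesis and uptake passed the DESeq2 test (1 lower and 0 higher at an unadjusted p under 0.05), and their median was 0.02. In the list of fatty acid synthesis and sterol efflux, where 4 of 24 rose and 2 fell (median 0.12), the increases were led by Pparg and by Nr1h3, encoding the sterol receptor LXRα, at 1.41 ± 0.16 (adjusted p 4.54e-17). Of genes of NRF2 and oxidative stress defence, 5 of 28 rose and 0 fell (median 0.16, 1 lower at an unadjusted p under 0.05), including catalase, Cat, at 0.53 ± 0.13 and the quinone reductase Nqo1 at 0.80 ± 0.21. Nuclear subunits of oxidative phosphorylation had 6 of 77 higher and 3 lower. In the integrated stress response list, where 5 of 29 rose and 4 fell (median 0.04), Vldlr, a lipoprotein receptor, was at 1.96 ± 0.21 and the mitochondrial folate enzyme Mthfd2 at -0.56 ± 0.17. Solute carriers were evenly split, with 24 of 204 higher (11.8%) and 26 lower (12.7%). The Zfp zinc-finger genes had 27 of 330 higher (8.18%, under the 9.11% of all genes) and 9 lower (2.73%, against 8.77%). Their called share, 10.9%, was smaller than the 17.9% of all genes. Exons of Pfkm overlap a gene on the other strand.

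By annotation, 1097 of 11620 protein-coding genes were higher and 1112 lower. Of the 1513 other genes 9.58% were called, and here increases prevailed, at 101 to 44. Of 62 small nuclear RNAs 10 were higher, and small nucleolar RNAs had 11 higher and 1 lower of 174 and miscellaneous RNAs 10 and 2 of 44. Processed pseudogenes differed, with 9 higher and 15 lower of 222.

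Of 5 measured genes on chromosome Y, 4 were higher and 0 lower. Among the 4 were Eif2s3y, at 1.90 ± 0.13 (adjusted p 6.12e-44), Uty, at 1.59 ± 0.19 (adjusted p 1.16e-14), and Ddx3y, at 1.44 ± 0.19 (adjusted p 1.57e-12). In GFP-TTP the median of these 4 genes was -1.03 against the same GFP libraries. Of 446 listed genes on chromosome 12, 109 were higher (24.4%, against 9.11% of all genes) and 14 lower. Chromosome 16 had 80 and 17 of 408 genes, and chromosome 19 had 82 and 24 of 464. On chromosome 11, 169 of 1125 genes were lower (15.02%, against 8.77% of all genes) and 47 higher. On chromosome 3, 112 of 657 were lower and 50 higher. In GFP-TTP against GFP, 30.2% of 427 genes on chromosome 19 were higher (4.08% of all genes). Lower in GFP-TTP were 18.96% of 575 genes on chromosome 3 and 14.6% of 562 on chromosome 10 (5.08% of all genes). On chromosome 12, 4.08% were higher in GFP-TTP, and on chromosome 11 3.20% were lower. Whether the pools of transduced cells differ in chromosome content was not tested, and centring each chromosome on its own median left 2124 called genes, of which 1889 were among the 2361.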

How the data were processed

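Total RNA of 9 macrophage libraries, 3 per group, was depleted of rRNA and sequenced. The authors aligned reads with TopHat (the labels name TopHat2 2.0.12) to GRCm38 with Ensembl annotation and counted them per gene with HTSeq, with strand use not given in the sources used here. The authors fitted DESeq2 1.6.3 with library date and condition as terms. The deposited library values, called normalized counts and treated here as a signal, are fitted means of that model (4 independent components, no zeros), so that ratios of same-numbered libraries equal the deposited fold changes. The deposited tables give for each comparison a mean normalized count, the log2 fold change with its standard error, the Wald score and p-values. The comparison between GFP-TTP-AA and GFP is defined by its table, so these columns were used for effect and error at an adjusted p under 0.05, and Benjamini-Hochberg adjustment recomputed from the deposited p-values differed by at most 0.000384. Fitted counts were divided by the library factor. Summed fitted means were 25504519 to 102613526 counts in the 6 libraries, and 3 libraries a group set the precision.

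Genes were described in classes of mean normalized count, by GENCODE M21 annotation (13133 of 13205 matched) and in functional lists, beside the same values over all genes, with no set test. Matches to TATTTAT were counted on the transcript strand of the 3′UTR of the transcript with the longest coding part. Named were Zfp36, Ier3, Dusp1, Tnfaip3 and Tnf, the 8 largest increases and decreases with a mean count of at least 50, up to 3 called members per list and direction with the smallest adjusted p, and the largest change of each class and direction. A few results under this rule are not reported here. Alternatives were filters, centring, a GC and length trend, division of the Wald scores by their spread (1.77) and stricter tests. All of these but the stricter tests were also run on simulated data. The comparison, the members and the lists were chosen with earlier results of these data known. Python 3.11.15 with pandas 2.3.3 and scipy 1.17.1 was used.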

Additional observations from a re-analysis of the deposited data

Results flagged for a closer look

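Among the genes named above, 30 passed the test in opposite directions in the GFP-TTP-AA and GFP-TTP groups against the 3 GFP libraries they share. They also passed the direct DESeq2 test between GFP-TTP-AA and GFP-TTP. That difference is the difference of the 2 changes in the same model, so that it is no separate support for these genes. Most named genes were chosen by their call in GFP-TTP-AA, and the share of such opposite calls over all genes was not counted. The change of Zfp36 did not pass the test in the libraries labelled GFP-TTP. Among these 30, the largest differences of GFP-TTP-AA over GFP-TTP on the log2 scale were those of the interferon-related Ifih1, at 3.70 ± 0.18, and Lgals3bp, at 3.59 ± 0.14. Of other interferon-related genes, Oasl1 differed by 3.04 ± 0.19, Gbp3 by 1.82 ± 0.21, Gbp7 by 1.52 ± 0.20 and H2-D1 by 0.83 ± 0.09. Of inflammatory signalling and cell death genes, Cxcl16 differed by 2.91 ± 0.19, Tnfrsf21 by 2.77 ± 0.18, Ripk3 by 2.43 ± 0.18, Ebi3 by 1.99 ± 0.19, Pycard by 1.15 ± 0.09 and Mknk2 by 0.79 ± 0.08. Of receptors and transcription factors, Pparg differed by 2.95 ± 0.22, Nr1h3 by 1.88 ± 0.16, Pirb by 2.43 ± 0.18, Pira2 by 2.27 ± 0.19 and Zfp709 by 1.56 ± 0.18. Emr1, which encodes the macrophage surface antigen used to sort these cells, differed by 1.43 ± 0.14. Other genes were Uchl1 at 2.55 ± 0.17, the transporters Slc6a13 at 2.28 ± 0.16 and Slc43a3 at 1.33 ± 0.10, Hist1h1a at 1.88 ± 0.18, Tubb2a at 1.85 ± 0.13 and the cell cycle inhibitor Cdkn1c at 1.67 ± 0.23. The Y-linked genes Eif2s3y, Ddx3y and Uty differed by 3.11 ± 0.14, 2.61 ± 0.19 and 2.49 ± 0.20. In the opposite direction, the translation factor gene Eif3a differed by -0.92 ± 0.09, the iron exporter Slc40a1 by -1.38 ± 0.15 and the collagen gene Col23a1 by -2.27 ± 0.19. Exons of Cdkn1c, Cxcl16, Ebi3, Oasl1, Pycard and Uchl1 overlap a gene on the other strand.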

How the results depend on the processing

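The count of 2361 genes kept its size with a minimum mean count of 50 (2194) or 100 (2080), with centring on the median of all genes (2359) or of each chromosome (2124), with a trend on GC content and length removed (2263), with the adjustment recomputed (2365) and with protein-coding genes only (2264). It was 197 after division of the Wald scores by their spread, where 62.9% of called genes were higher against 51.0%, 193 with a change of at least 1, and 133 in a test against changes up to 0.5 (100 higher and 33 lower). Increases outnumbered decreases in the main count (1203 and 1158), whereas decreases outnumbered increases with a minimum mean count of 50 (1044 higher and 1150 lower) or 100 (962 and 1118). The sign of no named gene was reversed by the settings run.

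With the scores divided by their spread, which lowers every score by the same factor, the called share from the lowest to the highest abundance class was 0.592, 2.38, 2.23, 2.11, 1.30, 0.953 and 0.651%. Members of all lists that passed fell from 396 to 42. No ribosomal protein, endoplasmic reticulum chaperone, NRF2, proteasome, mitosis, caspase, TNF receptor, NF-κB or immediate early gene remained (0 each), against 4 chemokines, 3 interferon-stimulated genes, 2 decay factors, 1 lysosomal gene and 1 actin gene. Shares of lower genes with 0, 1, 2 and 3 or more TATTTAT matches were 0.459, 0.865, 1.34 and 1.31%, and of higher genes 1.00, 1.06, 1.34 and 0.525%, so that the decline of higher genes over 0 to 2 matches was not kept. Of 192 named genes that differed between GFP-TTP-AA and GFP-TTP 49 remained. Centring by chromosome left 5 ribosomal protein and 1 proteasome genes, removal of the GC and length trend gave 17 ribosomal protein genes, and a minimum mean count of 100 left 4 chemokines. The settings for the TATTTAT shares were chosen after the data were seen.

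Of the 249 named genes, 58 kept their call with the scores divided by their spread and 191 lost it, 34 lost it with centring by chromosome and 12 with the GC and length trend removed. The cause of these losses beyond the settings' own construction was not tested. No paired analysis was possible because only fitted means of each library were given, which hold no scatter between replicates. For the same reason other size factors, pseudocounts, a fit without the replicate block and the omission of single libraries were not run. Precision is limited by 3 libraries a group, and in the lowest abundance class by a median standard error of 0.23 on the log2 scale.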

Other observations

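Among lists that the report does not describe, iron and haem handling had 3 of 18 members higher in GFP-TTP-AA and 1 lower. The iron transporter Slc11a2 was at 0.47 ± 0.16 (adjusted p 0.0251), the siderophore-binding Lcn2 at 0.44 ± 0.14 (adjusted p 0.0145) and the iron exporter Slc40a1 at -0.79 ± 0.15 (adjusted p 2.73e-06). Of the vacuolar ATPase, 0 of 18 rose and 2 fell (median -0.03, 1 higher at an unadjusted p under 0.05), with the subunits Atp6v1a at -0.30 ± 0.08 (adjusted p 0.00472) and Atp6v1c1 at -0.36 ± 0.08 (adjusted p 0.000192). The share of lower subunits, 11.1%, was near the 8.77% of all genes. In the autophagy list, 3 of 33 rose and 2 fell (median 0.05), with the receptor Optn at 0.53 ± 0.16 and the kinase Ulk1 at 0.53 ± 0.17 higher, and the receptor Nbr1 at -0.58 ± 0.10 and Becn1 at -0.26 ± 0.09 lower. Among ubiquitin ligases of the NEDD4 type, 2 of 10 rose and 2 fell (median -0.14), with Wwp1 at -0.42 ± 0.16 beside the increase of Nedd4. Of cyclins D and E and inhibitors of cyclin-dependent kinases, 1 of 18 rose and 3 fell (median -0.12), and the inhibitors Cdkn1c, at 0.94 ± 0.23, and Cdkn2d, at -0.60 ± 0.15, differed in direction. Of tubulins, 1 of 16 rose and 2 fell (median 0.07), with the paralogues Tubb2a at 0.32 ± 0.12 and Tubb2b at -1.02 ± 0.13, between which reads may be divided. Exons of Becn1, Cdkn1c, Optn, Slc11a2 and Wwp1 overlap a gene on the other strand.

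Of long noncoding RNAs and snoRNA hosts, 4 of 19 rose and 1 fell (median 0.18), and the hosts Snhg12 at 0.61 ± 0.17 (adjusted p 0.00462) and Snhg5 at 0.47 ± 0.13 (adjusted p 0.00502) were higher. Of 17 microRNA genes 4 were higher, and of 17 small Cajal body RNAs 5. Mitochondrial ribosomal protein genes had 7 of 74 higher (9.46%, close to the 9.11% of all genes) and 1 lower, with Mrpl52 at 0.91 ± 0.14 (adjusted p 1.85e-08). Of splicing factors, 2 of 39 rose and 4 fell (median -0.05). Over the called genes, 28.3% had exons that overlap a gene on the other strand, against 31.3% of all genes measured.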
